A study of Mus musculus with 12 samples.

Results

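The p53 tumor suppressor (*Trp53*), its relative *Trp73*, the p53 antagonists *Mdm2* and *Mdm4* and the p53 target genes *Cdkn1a*, *Eda2r*, *Ccng1*, *Phlda3*, *Zmat3* and *Sesn2* were followed through mouse medulloblastoma and cerebellum. The 10 genes were taken by symbol from a table of 24091 genes in TPM (a transcript abundance scaled for transcript length and library total), and each symbol gave 1 row. RNA had been sequenced from 12 samples in 4 groups of 3. The tumors and the adjacent cerebella came from the same 3 mice (GB344, GB359 and GB370), with the label Brca2-mut;Trp53-mut. The control cerebella of postnatal day 90 (P90) came from mice GB361, GB508 and GB512, labelled Brca2-mut;Trp53-WT and called Trp53-WT cerebella here, and from mice GB517, GB519 and GB520, labelled Brca2-WT;Trp53-mut and called Brca2-WT cerebella here. In the Brca2-mut mice, *Brca2* exons 3 and 4 were floxed and removed by Cre under the human GFAP promoter, which acts in the central nervous system, so cells outside that lineage kept the floxed allele. The Trp53-mut label is the global knockout Trp53tm1Tyj, in which a neo cassette takes the place of exons 2 to 6. No group with both labels WT was analysed here. The sample labels give no ages: that of the control cerebella is taken from column names in the study's supplementary data, and none is given here for the mice with tumors. Each comparison between a Trp53-WT and a Trp53-mut group therefore differs also in the Brca2 label or in the presence of a tumor.

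p53 is a transcription factor that is held low by MDM2, an E3 ubiquitin ligase, and by MDM4, which binds and blocks it. After DNA damage p53 escapes both and switches on genes of cell cycle arrest, apoptosis and repair, and *Mdm2* is itself such a gene, which closes a negative feedback loop. Loss of BRCA2 leaves DNA breaks that activate p53, and p53 loss is frequent in medulloblastoma of the Sonic hedgehog subgroup.

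p53 binds pairs of a degenerate motif of 10 bases, the p53 decamer, which reads the same on both strands. In the RefSeq promoter windows of GRCm38.p6 (mm10), from 250 bases before a gene start to 50 after it, 9 of the 10 genes had an entry, with 12 windows in all, and *Zmat3* had none. A decamer was found in 4 of the 12 windows, those of 4 genes, and in 8.36% of all 32851 windows. The upstream 250 bases of these 4 windows are shown 5′ to 3′ on the strand of the gene because they belong to *Trp53* itself, to *Mdm2* and to 2 targets that are compared in the results. Capitals mark the decamers. The *Cdkn1a* window, chr17:29090729-29090978 on the plus strand, lies at the upstream of 2 listed starts, 2790 bases before the other, and holds decamers that begin 73 and 51 bases before the start. The *Mdm2* window is chr10:117710759-117711008 and the *Ccng1* window chr11:40755287-40755536, both on the minus strand, with decamers that begin 186 and 185 bases before the start. The *Trp53* window is chr11:69580109-69580358 on the plus strand, with a decamer 75 bases before the start. A match describes letters only, and binding was not measured.
Cdkn1a: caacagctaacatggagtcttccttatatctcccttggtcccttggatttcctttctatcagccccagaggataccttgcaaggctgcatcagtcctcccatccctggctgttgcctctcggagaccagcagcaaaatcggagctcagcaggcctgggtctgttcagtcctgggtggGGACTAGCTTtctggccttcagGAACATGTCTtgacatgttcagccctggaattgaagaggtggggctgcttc
Mdm2: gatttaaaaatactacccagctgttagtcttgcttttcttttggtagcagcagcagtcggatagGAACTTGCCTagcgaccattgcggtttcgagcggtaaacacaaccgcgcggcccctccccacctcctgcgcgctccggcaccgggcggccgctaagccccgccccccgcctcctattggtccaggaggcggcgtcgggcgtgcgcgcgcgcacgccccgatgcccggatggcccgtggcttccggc
Ccng1: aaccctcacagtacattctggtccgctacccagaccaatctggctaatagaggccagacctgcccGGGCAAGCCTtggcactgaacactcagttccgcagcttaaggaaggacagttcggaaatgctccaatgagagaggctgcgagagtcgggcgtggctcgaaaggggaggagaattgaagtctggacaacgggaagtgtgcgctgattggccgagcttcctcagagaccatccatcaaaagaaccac
Trp53: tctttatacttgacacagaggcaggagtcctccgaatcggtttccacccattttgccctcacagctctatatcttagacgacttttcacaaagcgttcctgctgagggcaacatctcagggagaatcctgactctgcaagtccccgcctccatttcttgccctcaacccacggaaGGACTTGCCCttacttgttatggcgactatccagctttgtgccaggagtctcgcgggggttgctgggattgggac

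Each library reached at least 1 TPM for 15088 to 15803 genes. The tissue labels were checked against marker genes. Summed markers of granule cell progenitors, the cells of origin of Sonic hedgehog medulloblastoma, were 1945 to 2497 TPM in the tumors and 41.9 to 53.6 TPM in the 6 control cerebella. In the adjacent cerebella they were 687, 602 and 95.0 TPM in mice GB344, GB359 and GB370. The part of this progenitor content in the differences between adjacent and other cerebella was not tested. Granule neuron markers summed to 105 to 370 TPM in the tumors and to at least 1887 TPM in every cerebellum. The adjacent cerebella were uneven: 12 proliferation genes summed to 486 TPM in mouse GB344, 296 TPM in GB359 and 47.7 TPM in GB370, against 1137 to 1236 TPM in the tumors and 20.2 to 22.2 TPM in the Brca2-WT cerebella. Of the Trp53-WT cerebella, mouse GB512 stood apart with 74.2 TPM for that list, against 18.9 and 15.7 TPM. All 3 Brca2-WT cerebella held choroid plexus transcripts, with 6 markers at 3969 to 5191 TPM in sum, against 878, 19.5 and 24.1 TPM in the Trp53-WT cerebella. In the adjacent cerebella that sum was 23.3 to 66.2 TPM. In bulk tissue, fewer cells of a type and less RNA per cell cannot be told apart.

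**Figure D1:**
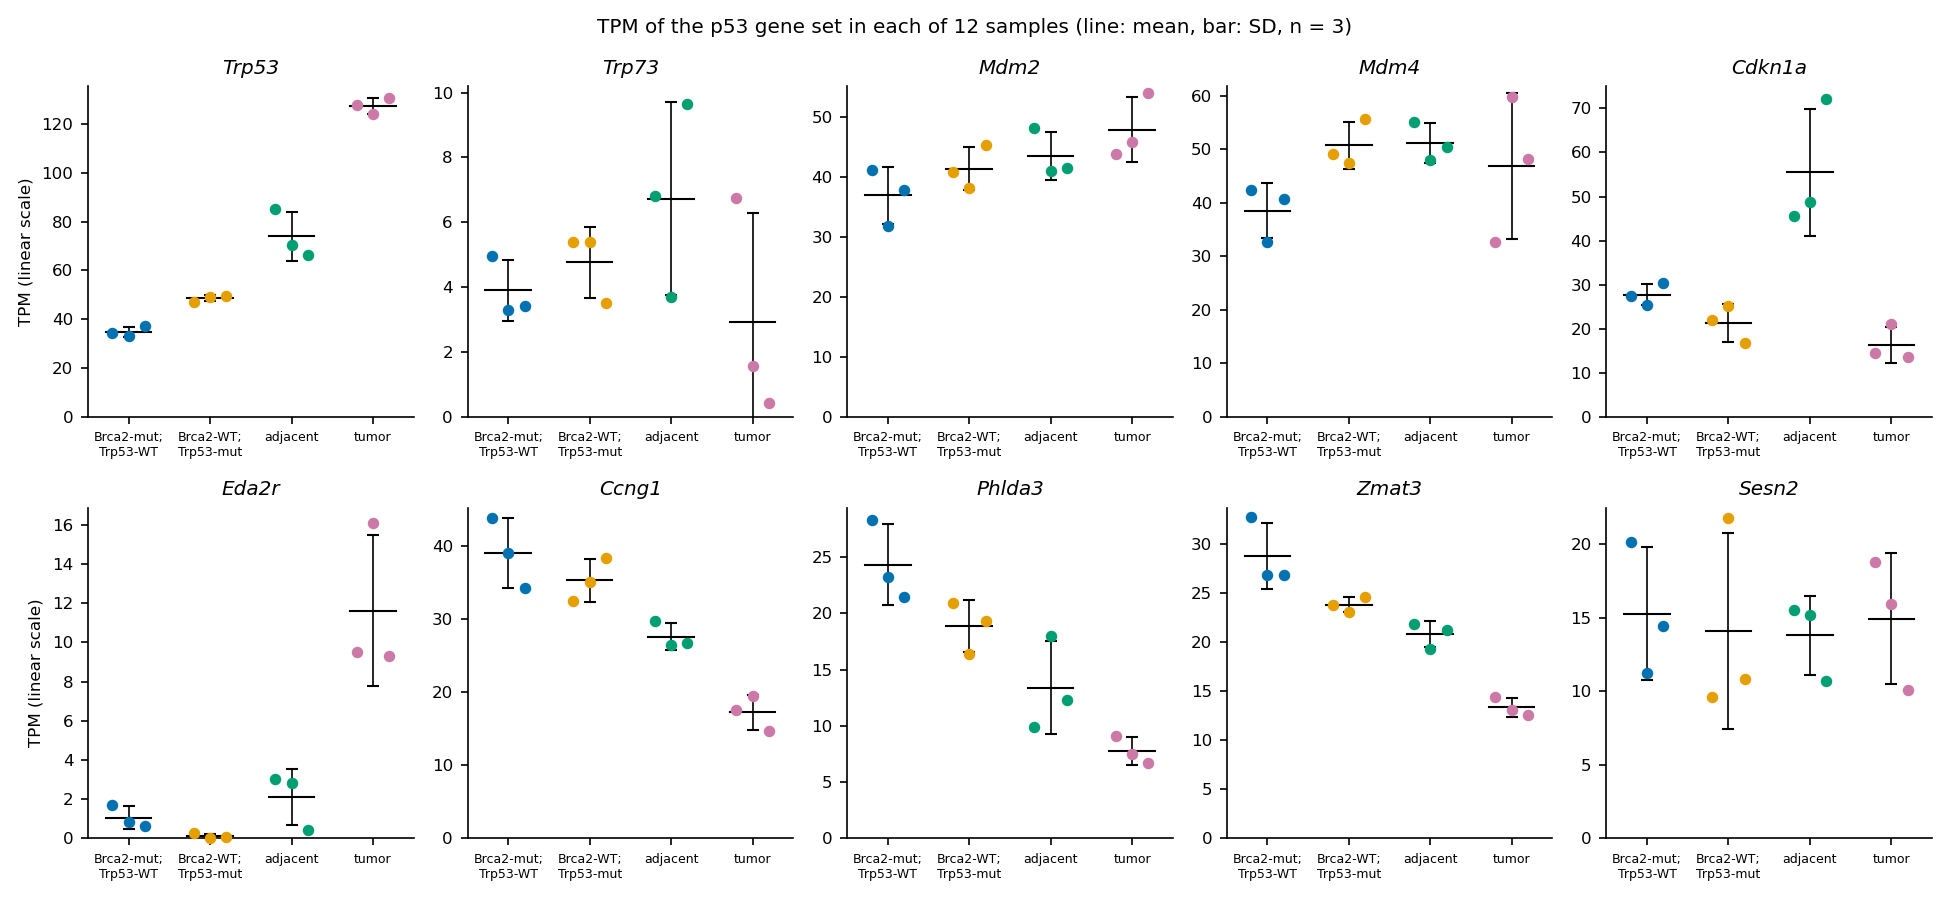
TPM of the 10 genes (linear axis) in each of the 12 samples, with the mean as a line and the SD as a bar (n = 3 per group). *Trp53* climbs from 33.1 to 37.2 TPM in the Trp53-WT cerebella to 124 to 130 TPM in the tumors, *Eda2r* is highest in the tumors, *Cdkn1a* is highest in the adjacent cerebella, and *Ccng1*, *Phlda3* and *Zmat3* are lowest in the tumors.

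The level of *Trp53* RNA was lowest in the one group that kept the gene. It was 34.2, 33.1 and 37.2 TPM in the Trp53-WT cerebella, 47.1, 49.2 and 49.4 TPM in the Brca2-WT cerebella, 85.0, 70.5 and 66.1 TPM in the adjacent cerebella, and 128, 124 and 130 TPM in the tumors, the mice of both being given in the order GB344, GB359, GB370. The 4 groups did not overlap, and every Trp53-mut sample lay above every Trp53-WT sample. With the tumors left aside, 9.94% of the 16091 genes tested had every Trp53-WT sample below all 6 Trp53-mut cerebella. The *Trp53* values do not check the Trp53 label. The reference transcript of *Trp53* on chromosome 11 has 11 exons and 1771 bases, and exons 2 to 6 (69586891 to 69588738 with the introns between them) hold 663 of these, or 37.4%, all of them coding (221 of 390 codons). The remaining 1108 bases, in exon 1 and from exon 7 on, are outside the replaced stretch, and the table sums all transcripts of a gene.

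A gene was called when limma on log2(TPM + 1), with Benjamini-Hochberg adjustment over all genes tested, gave an adjusted p below 0.01 and a log2 fold change that reached 1 in either direction. Fold changes are on that scale throughout and are given with their standard error. By this rule *Trp53* was not called between any cerebella with all samples in. Trp53-WT minus Brca2-WT cerebella gave a log2 fold change of -0.47 ± 0.07 (adjusted p = 0.0497), and Trp53-WT minus adjacent cerebella -1.06 ± 0.11 (adjusted p = 0.0376). The latter was called without the adjacent sample of mouse GB370 (-1.13, adjusted p = 0.0051), where 278 genes in all were called lower, and with all 4 groups in 1 fit (adjusted p = 0.00242). Over all 6 Trp53-mut cerebella the difference was -0.76 ± 0.18 (adjusted p = 0.0991). Between the Trp53-mut groups, the adjacent minus Brca2-WT difference was 0.59 ± 0.10 (adjusted p = 0.057). In the tumors *Trp53* rose 2.62-fold over the Brca2-WT cerebella in mean TPM, with a log2 fold change of 1.37 ± 0.08 (adjusted p = 1.82e-05), and 3.66-fold over the Trp53-WT cerebella, with 1.84 ± 0.10 (adjusted p = 1.84e-05). Against the adjacent cerebella of the same mice, the difference of 0.79 ± 0.13 passed the p threshold (adjusted p = 0.00293) and not the fold minimum. *Brca2*, the other gene in the labels, ranged over 3.4 to 3.79 TPM in the Trp53-WT cerebella, 3.24 to 4.40 TPM in the Brca2-WT cerebella, 4.52 to 6.98 TPM in the adjacent cerebella and 8.22 to 14.6 TPM in the tumors.

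**Figure D2:**
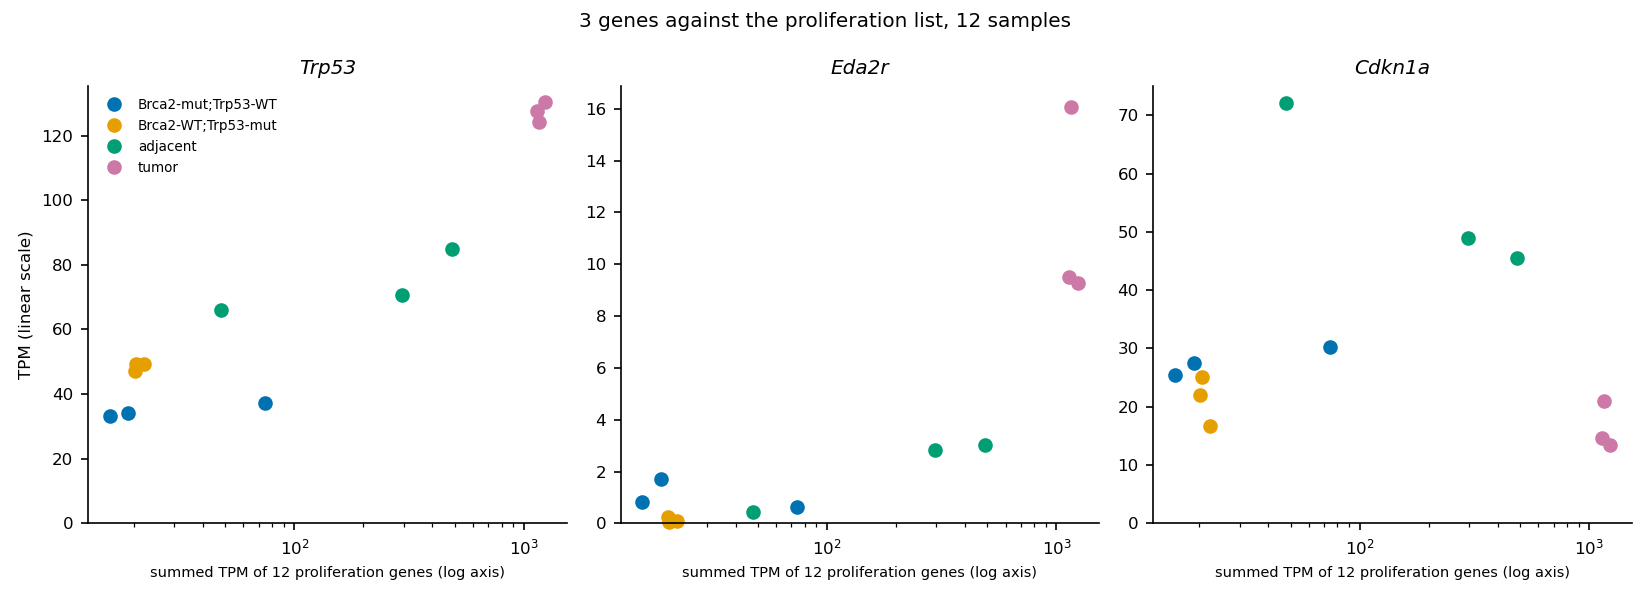
TPM of *Trp53*, *Eda2r* and *Cdkn1a* (linear axes) against the summed TPM of 12 proliferation genes (log axis) in the 12 samples, 1 point per sample, colored by group. The tumors lie at 1137 to 1236 TPM on the horizontal axis with the highest *Trp53* and *Eda2r*, and adjacent mouse GB370, at 47.7 TPM, has the highest *Cdkn1a* (72.1 TPM).

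*Trp73* encodes p73, which shares target genes with p53 and, in a truncated form, opposes it. Its level was low and scattered, with 6.75, 1.57 and 0.427 TPM in the tumors, in that mouse order, 6.82, 3.71 and 9.64 TPM in the adjacent cerebella, 4.97, 3.30 and 3.42 TPM in the Trp53-WT cerebella and 5.38, 5.40 and 3.51 TPM in the Brca2-WT cerebella. The tumors of GB359 and GB370 were below every cerebellum, and the tumor of GB344 was within the range of the adjacent group. No comparison called *Trp73* with all samples: the tumor minus Brca2-WT difference was -0.90 ± 0.58 (adjusted p = 0.212) and the tumor minus adjacent difference -1.26 ± 0.62 (adjusted p = 0.133). Without the tumor of mouse GB344, *Trp73* was called lower in the tumors than in the Brca2-WT cerebella (-1.57, adjusted p = 0.00423) and than in the Trp53-WT cerebella (-1.34, adjusted p = 0.00728).

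Neither antagonist was called in any comparison. *Mdm2*, the ligase and p53 target, was 41.1, 31.8 and 37.9 TPM in the Trp53-WT cerebella and 40.7, 38.2 and 45.3 TPM in the Brca2-WT cerebella, which overlap. It was 48.2, 41.0 and 41.4 TPM in the adjacent cerebella and 43.8, 45.9 and 54.1 TPM in the tumors. Its difference between Trp53-WT and Brca2-WT cerebella was -0.16 ± 0.11 (adjusted p = 0.446), an estimate on the side of less RNA where *Trp53* is labelled WT. The widest gap, 0.37 ± 0.14 between the tumors and the Trp53-WT cerebella, had an adjusted p of 0.0562. *Mdm4* was 42.4, 32.6 and 40.6 TPM in the Trp53-WT cerebella, below all 6 Trp53-mut cerebella, which ranged over 47.4 to 55.7 TPM, and the difference was -0.40 ± 0.10 (adjusted p = 0.0986). Such a separation below both Trp53-mut groups was seen for 9.94% of the 16091 genes tested. In the tumors *Mdm4* spread from 32.6 TPM (GB344) through 48.2 TPM (GB370) to 59.7 TPM (GB359), which covers the range of the other groups.

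Among the 6 targets, none was called by the Trp53 label. In Trp53-WT against Brca2-WT cerebella, 0 of the 9 members tested were called, beside 0.0578% of the 15575 genes tested, and 1, *Trp53*, was lower at an adjusted p under 0.05 without a fold minimum, which held for 0.417% of genes in that direction. At an unadjusted p under 0.05 there were 5 members (*Trp53*, *Mdm4*, *Cdkn1a*, *Phlda3* and *Zmat3*), beside 20.1% of all genes. Against the adjacent cerebella, 0 of 10 were called (0.0254% of 15727 genes), and at an adjusted p under 0.05 *Trp53* and *Cdkn1a* were lower (2.19% of genes in that direction), with 6 members at an unadjusted p under 0.05 (29.9% of genes). Against both Trp53-mut groups together, 0 of 10 were called (0.00621% of 16091 genes) and 0 had an adjusted p under 0.05 (0.0249% of genes), with 5 members at an unadjusted p under 0.05 (18.9% of genes).

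**Figure D3:**
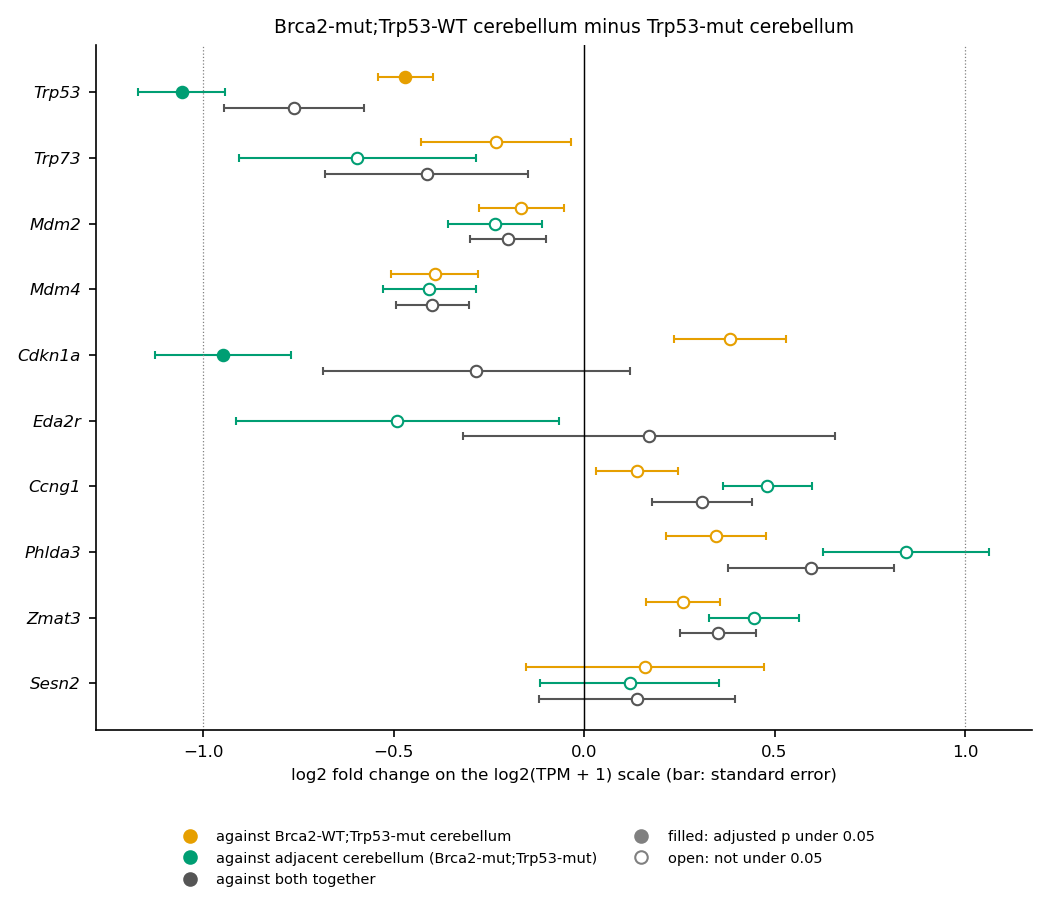
Log2 fold change on the log2(TPM + 1) scale (horizontal axis, bar: standard error) of each gene in Trp53-WT cerebellum minus Brca2-WT cerebellum, minus adjacent cerebellum, and minus both together. Filled points have an adjusted p under 0.05: *Trp53* in the first and second comparison (-0.47 and -1.06) and *Cdkn1a* in the second (-0.95). *Eda2r* was not tested in the first.

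*Phlda3* and *Zmat3* were nonetheless ordered by label in single samples. *Phlda3*, an inhibitor of AKT signaling, was 28.3, 23.3 and 21.4 TPM in the Trp53-WT cerebella, 20.9, 16.4 and 19.4 TPM in the Brca2-WT cerebella and 9.88, 18 and 12.3 TPM in the adjacent cerebella. *Zmat3*, an RNA-binding zinc finger protein, was 32.7, 26.9 and 26.8 TPM in the Trp53-WT cerebella, 23.7, 23.1 and 24.6 TPM in the Brca2-WT and 21.8, 19.3 and 21.3 TPM in the adjacent cerebella. For both genes every Trp53-WT sample lay above every Trp53-mut cerebellum, which was so for 2.78% of all genes tested. The Purkinje cell markers had the same order: all 5 lay above without overlap, and they summed to 5850 to 7236 TPM in the Trp53-WT, 4263 to 4616 TPM in the Brca2-WT and 3611 to 4472 TPM in the adjacent cerebella. The part of this marker content in the order of *Phlda3* and *Zmat3* was not tested. The differences over the 6 Trp53-mut cerebella were 0.60 ± 0.22 for *Phlda3* (adjusted p = 0.196) and 0.35 ± 0.10 for *Zmat3* (adjusted p = 0.126), so neither passed the test. *Ccng1*, cyclin G1, was 43.8, 39.0 and 34.3 TPM in the Trp53-WT cerebella and overlapped the 32.5, 35.0 and 38.4 TPM of the Brca2-WT cerebella. It was above the 29.7, 26.4 and 26.7 TPM of the adjacent cerebella, with a difference of 0.48 ± 0.12 (adjusted p = 0.0635). In Trp53-WT against Brca2-WT samples alone, *Cdkn1a*, *Phlda3* and *Zmat3* lay above without overlap (6.7% of genes did) and *Trp53* and *Mdm4* below (20.3%). Against the adjacent samples *Ccng1*, *Phlda3* and *Zmat3* lay above (11.8%) and *Trp53*, *Mdm4* and *Cdkn1a* below (23.9%).

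*Cdkn1a*, which encodes the cyclin-dependent kinase inhibitor p21 and is the best known arrest gene of p53, was highest next to the tumors, where the Trp53 label is mut. Its level was 45.5, 48.9 and 72.1 TPM in the adjacent cerebella of mice GB344, GB359 and GB370, 27.5, 25.5 and 30.3 TPM in the Trp53-WT cerebella, 22.0, 25.1 and 16.7 TPM in the Brca2-WT cerebella and 14.6, 21.0 and 13.5 TPM in the tumors. The adjacent samples lay above all 9 others, and the Trp53-WT samples above the Brca2-WT samples. For 17.1% of genes every adjacent sample lay above every Brca2-WT sample. That is a weaker condition than lying above all 9 others, whose share was not computed. At equal Trp53 label, the adjacent minus Brca2-WT difference was 1.33 ± 0.21 (adjusted p = 0.0472), and 0 of 9 members tested were called in that comparison (0.183% of 15826 genes). At an adjusted p under 0.05 *Cdkn1a* was the only member, beside 0.48% of genes in that direction. Without the adjacent sample of mouse GB370, *Cdkn1a* was called (1.13, adjusted p = 0.00846), in a fit that called 505 genes higher (3.19%) and 70 lower, against 29 genes in all with every sample. Trp53-WT minus adjacent was -0.95 ± 0.18 (adjusted p = 0.0467), and Trp53-WT minus Brca2-WT 0.38 ± 0.15 (adjusted p = 0.212). The adjacent sample with the highest *Cdkn1a*, mouse GB370, had the lowest proliferation sum of the group (47.7 TPM) and the lowest progenitor sum (95.0 TPM, against 687 and 602 TPM), and the part of this marker content in the result was not tested.

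*Eda2r*, a receptor of the TNF receptor family for ectodysplasin A2, was close to 0 TPM in the control cerebella. It was listed at 0.258, 0.0359 and 0.0848 TPM in the Brca2-WT cerebella and at 1.71, 0.818 and 0.621 TPM in the Trp53-WT cerebella, which do not overlap. Both lie too low for the filter of 1 TPM in 3 samples, and without that filter the difference was 0.83 ± 0.20 (adjusted p = 0.152). The adjacent cerebella gave 3.01, 2.83 and 0.447 TPM, of which mouse GB370 fell among the Trp53-WT values. Adjacent minus Brca2-WT was 1.32 ± 0.40 without the filter (adjusted p = 0.146). *Sesn2*, a stress sensor that restrains mTORC1, did not separate any groups: it ranged over 11.2 to 20.2 TPM in the Trp53-WT, 9.65 to 21.8 TPM in the Brca2-WT and 10.7 to 15.5 TPM in the adjacent cerebella and 10.1 to 18.8 TPM in the tumors. The absolute log2 fold change of *Sesn2* was at most 0.16 in the 7 comparisons, and in each of the 7 its sign turned under some other setting.

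In the tumors, *Trp53* and *Eda2r* rose and up to 3 members fell. *Eda2r* entered all 3 tumor comparisons through the tumors: it reached 1 TPM in 3 of 3 tumors, 2 of 3 adjacent, 1 of 3 Trp53-WT and 0 of 3 Brca2-WT cerebella, so the filter itself favored a difference, and nothing is read from the counts that include it. Against the Brca2-WT cerebella, which share the Trp53 label, *Trp53* and *Eda2r* were called higher (2 of 10, beside 13.5% of 15970 genes) and *Phlda3* lower (1 of 10, beside 22.3%). Against the Trp53-WT cerebella *Trp53* and *Eda2r* were higher (2 of 10, beside 14.3% of 15767 genes), and *Ccng1*, *Phlda3* and *Zmat3* were lower (3 of 10, beside 20.5%). Against the adjacent cerebella *Eda2r* was higher (1 of 10, beside 4.76% of 15845 genes) and *Cdkn1a* lower (1 of 10, beside 18%). The comparisons share the 3 tumors and are not independent of each other. Over all genes tested, the median difference in log2 was -0.16 against the Brca2-WT cerebella, -0.03 against the Trp53-WT and -0.14 against the adjacent cerebella, and over the 10 members it was -0.26, -0.35 and -0.39. By median-of-ratios scaling the median of all genes was -0.01, 0.01 and 0.02, and *Mdm4* and *Sesn2* were the members whose sign changed with it.

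**Figure D4:**
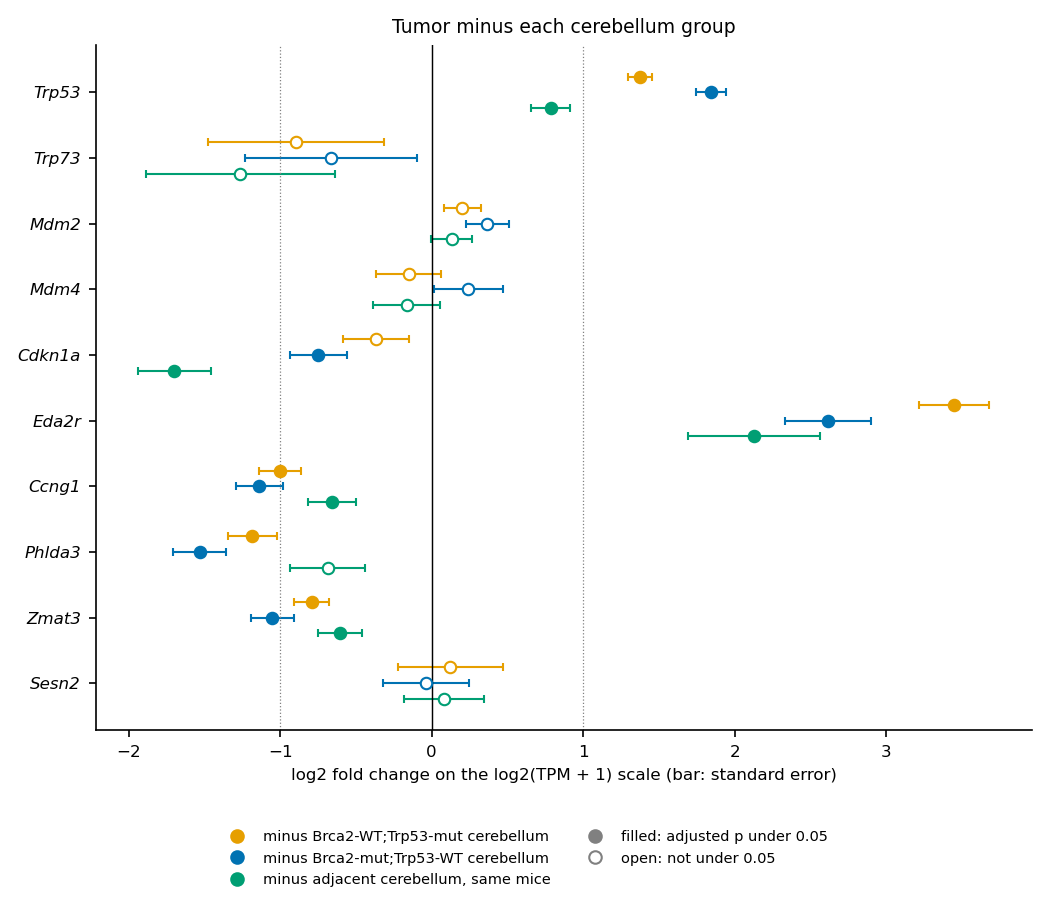
Log2 fold change on the log2(TPM + 1) scale (horizontal axis, bar: standard error) of each gene in tumor minus each of the 3 cerebellum groups. Filled points have an adjusted p under 0.05. *Trp53* (0.79 to 1.84) and *Eda2r* (2.13 to 3.45) lie to the right in all 3 comparisons, *Ccng1* and *Zmat3* to the left, and *Cdkn1a* is farthest left against the adjacent cerebella (-1.70).

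*Eda2r* had the largest difference of the 10 genes, among which it alone passed the filter only through the tumors. It was 9.51, 16.1 and 9.29 TPM in the 3 tumors, in the same mouse order, above all 9 cerebella. The rise was 3.45 ± 0.23 over the Brca2-WT cerebella (adjusted p = 3.09e-05) and 2.62 ± 0.28 over the Trp53-WT cerebella (adjusted p = 0.000195). The filter let the gene in through the tumors, so no support is drawn from the adjusted p of its tumor comparisons. Mean TPM was 11.1 times that of the Trp53-WT cerebella. Over the adjacent cerebella the rise was 2.13 ± 0.44 (adjusted p = 0.00731), with both samples of each mouse ordered the same way. That call was lost when any tumor or the adjacent sample of mouse GB344 or GB359 was left out (adjusted p from 0.0105 to 0.026), with a pseudocount of 0.1 or 0.01 (0.0175 and 0.0206) and without the filter on low values (0.014).

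Against the control cerebella the deepest fall was that of *Phlda3*. It was 9.08, 7.53 and 6.69 TPM in the tumors, below all cerebella, with -1.18 ± 0.16 against the Brca2-WT (adjusted p = 0.000655) and -1.53 ± 0.17 against the Trp53-WT cerebella (adjusted p = 0.000247). With quantile normalization the former was -0.94 and not called. *Ccng1* was 17.5, 19.5 and 14.7 TPM in the tumors, with -1.14 ± 0.16 against the Trp53-WT cerebella (adjusted p = 0.000604). Against the Brca2-WT cerebella the value of -0.9997 (adjusted p = 0.000718) stopped just short of the fold minimum, and the gene was called with a pseudocount of 0.1 or 0.01 and in 4 of 6 fits with 1 sample left out. *Zmat3* was 14.4, 13 and 12.5 TPM in the tumors, with -1.05 ± 0.14 against the Trp53-WT cerebella (adjusted p = 0.000545) and -0.79 ± 0.11 against the Brca2-WT cerebella (adjusted p = 0.000828). Leaving out Trp53-WT mouse GB361 took *Zmat3* below the fold minimum (-0.96), as did quantile normalization (-0.95). *Cdkn1a* fell to 0.295 of its mean in the adjacent cerebella, with -1.70 ± 0.24 (adjusted p = 0.00165). Against the Trp53-WT cerebella its difference was -0.75 ± 0.19 (adjusted p = 0.0105), and against the Brca2-WT cerebella -0.37 ± 0.22 (adjusted p = 0.177), where the tumors overlap. All 12 proliferation genes were called higher in the tumors than in either control group. Only 4 of the 12 passed the filter among the control cerebella alone, so this count is not used as support. Granule neuron, Purkinje cell and progenitor marker sums differ in the same samples. The part of cell composition in these differences was not tested.

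Other genes of the pathway were taken from 4 lists of 43 p53 targets and 1 list of p53 regulators. Between cerebella, none of the 43 targets was called: 0 of 40 tested in Trp53-WT against Brca2-WT, 0 of 42 against adjacent, 0 of 42 against both together, and 0 of 40 in adjacent against Brca2-WT. Their median log2 fold changes were -0.03, -0.14, -0.08 and 0.06, beside -0.07, -0.11, -0.10 and 0.02 for all genes. At an adjusted p under 0.05, *Pidd1*, a scaffold of caspase-2 activation, and *Ddb2*, a sensor of UV damage, were lower in Trp53-WT than in adjacent cerebella (-1.28 ± 0.23, adjusted p = 0.0447, and -0.57 ± 0.11, adjusted p = 0.0487). These were 2 of 42, beside 2.19% of all genes in that direction. *Tap1*, a peptide transporter for antigen presentation, was higher in adjacent than in Brca2-WT cerebella (1.02 ± 0.15, adjusted p = 0.0372), as 1 of 40 beside 0.48% of all genes. These 3 were named after their values were seen. By list, Trp53-WT minus Brca2-WT medians were 0.01 for 8 arrest genes (6 tested), -0.06 for 14 apoptosis genes (13 tested), -0.14 for 7 repair genes and 0.01 for 14 metabolic and other genes.

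In the tumors, the targets moved in both directions. Of 42 tested against the Brca2-WT cerebella, 11 were higher and 8 lower, beside 13.5% and 22.3% of all genes. Of 43 against the Trp53-WT cerebella, 10 were higher and 7 lower (14.3% and 20.5% of genes), and of 42 against the adjacent cerebella 2 and 7 (4.76% and 18%). The medians were 0.15, 0.25 and 0.26. Against the Brca2-WT cerebella, the apoptosis list had 5 higher and 1 lower of 14 (median 0.68), the arrest list 3 and 1 of 7 (0.64), the repair list 1 and 1 of 7 (-0.41) and the metabolic list 2 and 5 of 14 (-0.71). The arrest gene *Psrc1* and the apoptosis gene *Dram1* entered these tumor comparisons through the tumors, being below 1 TPM in cerebella of every group. Against the Brca2-WT cerebella the same held for the apoptosis gene *Pmaip1*, at 0.946 TPM in mouse GB520. Nothing is read from the counts and medians that include these genes. The largest falls among genes of the p53 and proliferation lists were those of *Ak1*, an adenylate kinase, from 115 to 130 TPM in the Brca2-WT cerebella to 7.37 to 9.67 TPM (-3.68 ± 0.13, adjusted p = 4.85e-06), *Gls2*, the p53-regulated glutaminase (-2.84 ± 0.15), and *Perp*, a membrane protein of apoptosis and desmosomes (-1.94 ± 0.25). The largest rises were *Top2a* (7.22 ± 0.12) and *Mki67* (6.44 ± 0.22), both proliferation genes, and *Cdkn2a* (7.15 ± 0.42). Each was below 1 TPM in every Brca2-WT cerebellum and in at least 1 Trp53-WT cerebellum. The filter therefore let them in through the tumors, and their tests against the control cerebella are not used as support. Against the Trp53-WT cerebella these rises and the falls of *Ak1* and *Gls2* also led, with *Pltp*, a phospholipid transfer protein, as the third fall (-1.85 ± 0.35). Against the adjacent cerebella none of the 12 proliferation genes was called, although all 12 were higher in the tumors, with a median of 2.50. Of these, 11 had an adjusted p under 0.05, beside 18.1% of all genes in that direction. The leading rises among called genes in that comparison were those of *Cdkn2a*, *Rps27l*, a ribosomal protein paralog whose reads may be shared with *Rps27* (1.75 ± 0.22), and *Pidd1* (1.65 ± 0.25).

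**Figure D5:**
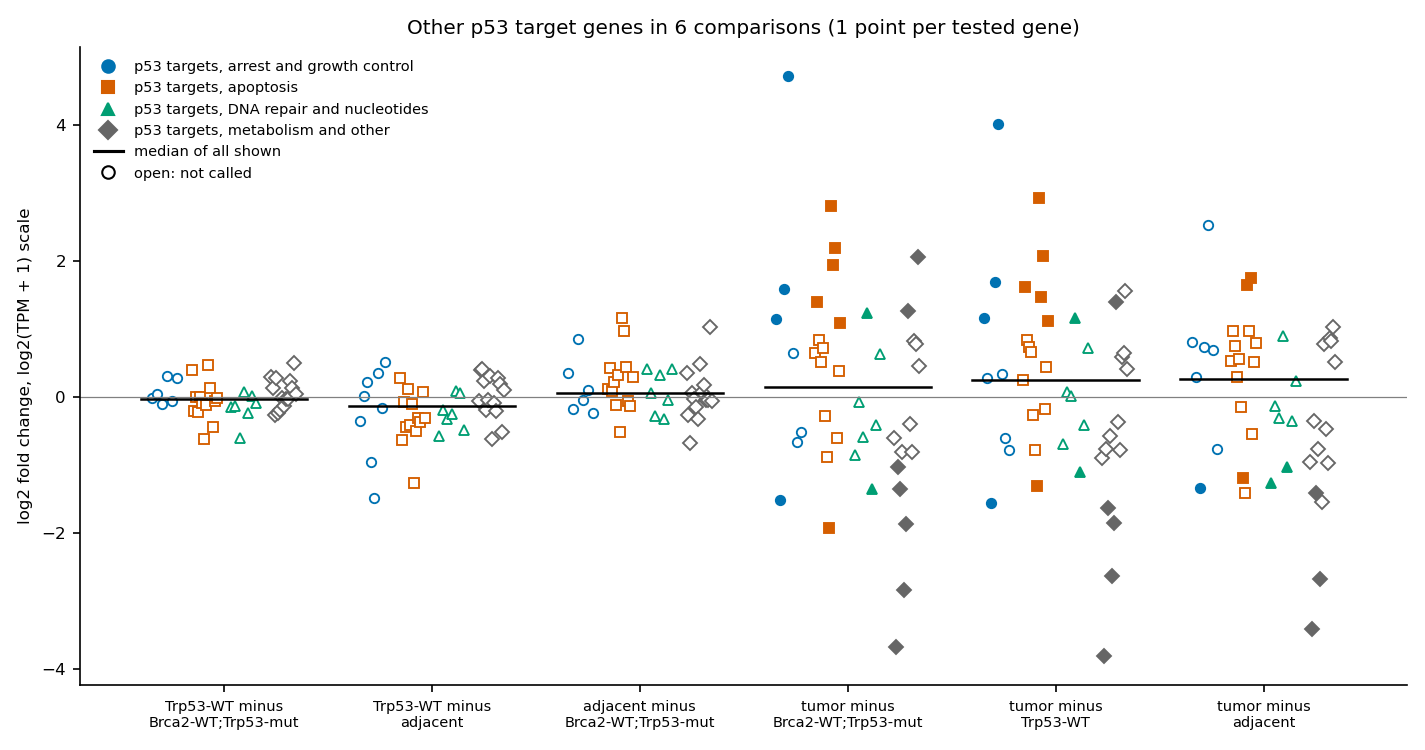
Log2 fold change on the log2(TPM + 1) scale (vertical axis) of each tested gene of the 4 p53 target lists in 6 comparisons, with called genes filled and the median of all shown as a line. No point is filled in the 3 comparisons between cerebella, and the tumor comparisons spread from -3.81 (*Ak1*) to 4.71 (*Psrc1*).

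The leading gene of each list was added after its value was seen. *Psrc1*, a spindle protein, was 33.0, 38.8 and 41.5 TPM in the tumors against 0.247 to 0.712 TPM in the Brca2-WT cerebella (4.71 ± 0.18, adjusted p = 6.07e-06). The filter let *Psrc1* in through the tumors, so that adjusted p is not used as support. *Pidd1* was 19.5, 18.7 and 13.5 TPM against 1.46 to 1.65 TPM (2.81 ± 0.18), *Tap1* 6.51 to 23.8 TPM against 2.45 to 2.87 TPM (2.05 ± 0.42), and *Polh*, a translesion polymerase, rose by 1.22 ± 0.20. Lower were *Plk2*, a polo-like kinase, at -1.52 ± 0.24, and *Polk*, another translesion polymerase, at -1.35 ± 0.14. In the adjacent cerebella *Psrc1* and *Pidd1* were 12.6 and 5.48 TPM in mouse GB344, 11.3 and 5.92 TPM in GB359, and 0.823 and 3.26 TPM in GB370, the order of the proliferation sums for *Psrc1*. Of the regulators, 4 of 18 tested were higher and 2 lower in tumors than in Brca2-WT cerebella (median 0.28), beside 13.5% and 22.3% of all genes. Against Trp53-WT cerebella 6 and 2 of 18 were higher and lower (median 0.52), beside 14.3% and 20.5%. Against adjacent cerebella 2 and 1 of 18 were (median 0.31), beside 4.76% and 18%. The regulator counts and medians against the Brca2-WT and Trp53-WT cerebella include *Cdkn2a*. The filter let that gene in through the tumors, so nothing is read from those counts and medians. Between cerebella none of the regulators was called.

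*Cdkn2a*, whose locus encodes p16INK4a and p19ARF, the latter an inhibitor of MDM2, set the regulators apart. It was 126, 115 and 321 TPM in the tumors, in the same mouse order, and 14, 17.3 and 5.36 TPM in the adjacent cerebella. In the Brca2-WT cerebella it was listed at 0 in 2 samples and at 0.655 TPM in the other. In the Trp53-WT cerebella it was 1.73, 0.342 and 7.74 TPM, with the highest value in mouse GB512, the sample with the highest proliferation sum of that group. The tumor minus adjacent difference was 3.8 ± 0.52 (adjusted p = 0.00142), and adjacent minus Brca2-WT was 3.35 ± 0.42 (adjusted p = 0.0245), under 0.05 and not called. In the latter comparison the filter let *Cdkn2a* in through the adjacent samples, so that adjusted p is not used as support. The regulator with the largest fall in the tumors was *Ppp1r13b*, encoding the p53 cofactor ASPP1, at -1.91 ± 0.38 against the Brca2-WT cerebella (adjusted p = 0.00403).

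The genes most like each member over the 12 samples were found by Pearson's r of log2(TPM + 1), a description in which samples share a group and, for tumor and adjacent, a mouse. *Trp53* was nearest to *Wdr77* (r = 0.990), *Flna* (0.988) and *Srsf2* (0.987), *Eda2r* to *Polr1b* (0.988), *Nme7* and *Rps7*, and *Ccng1* to *Lrrn3* (0.993), *Gucy1a2* and *Fut9*. *Phlda3* was nearest to *Ndufs8* (0.986) and *Zmat3* to *Prkg1* (0.985). Without the tumors these r were 0.981, 0.969, 0.974, 0.971 and 0.934 over 9 samples. The names depend on the samples and the measure: of the 3 nearest genes, 7 of the 10 members kept none without the tumors and 6 kept none by Spearman's rho. *Trp73* was nearest to *Wrap73* (0.967), its neighbor on chromosome 4, whose annotated start or end lies 2478 bases away. *Mdm2* was nearest to *Ifnar1* (0.941), *Mdm4* to *Nrd1* (0.937) and *Cdkn1a* to *Zfp651* (0.913), and *Sesn2* had the lowest leading value, with *Asns* (0.873). Among the members, *Trp53* ran opposite to *Phlda3* (r = -0.954), *Zmat3* (-0.952) and *Ccng1* (-0.938) over the 12 samples, and over the 9 cerebella with r of -0.885, -0.856 and -0.828. *Ccng1* and *Zmat3* ran together (0.969 and 0.906). The share of all genes with such r was not computed, so nothing particular to these genes is read from them.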

How the data were processed

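RNA from 12 mouse samples was poly(A)-selected. The authors quantified transcripts with Salmon 0.8.1 on mm10 known genes and deposited TPM per gene, which sum to between 999793 and 999876 per sample. Read depth is unknown. The error given is the moderated standard error of the group difference from limma. It rests on the spread over samples, with each variance drawn toward a trend over all genes. In all, 0 sample columns were left unused. Columns were matched to groups by mouse number and tissue in the labels.

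TPM were used as log2(TPM + 1). The filter kept genes that reached 1 TPM in 3 or more samples of the groups compared. limma 3.58.1 (trend, R 4.3.3) was fitted to those groups only, and calls needed an adjusted p below 0.01 with a log2 fold change that reached 1 in size. The authors tested counts, which were not used here. On this scale, changes of low genes are understated. The fit was tested on simulated data with independent samples, for Trp53-WT against Brca2-WT and against all Trp53-mut cerebella. It called 187 and 191 of 200 planted changes. Each planted change was larger than any member difference by the Trp53 label, so the simulation says nothing on detecting those. The members and gene lists were chosen with earlier results of these data known. Named genes were the 10 members, *Brca2*, the 3 largest called rises and falls among the list genes (all of them where 5 or fewer were called) and up to 3 alike genes per member among those with a mean of at least 5 TPM. Tumor and adjacent samples pair by mouse (deviations of the same mouse correlated at 0.274, 0.186 and 0.175). Alternatives were a pseudocount of 0.1 or 0.01, no filter or at least 5 TPM, median-of-ratios or quantile scaling, no trend, all 4 groups in a fit, an adjusted p under 0.05 without a fold minimum, the mouse as a block, and each sample left out. Entrez identifiers of all 10 members matched RefSeq (GRCm38.p6); promoter windows are from RefSeq and exons from GENCODE.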

Additional observations from a re-analysis of the deposited data

How the results depend on the processing

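Of 1055 member results under other settings, 991 kept their direction and their call, 21 were newly called, 11 lost the call and 32 changed sign. Settings that altered only the filter, the trend, the groups fitted, the block or the threshold left the fold change as it was. With those settings only the call could change, so the number of kept directions is no measure of stability. Part of the newly called results came from the lower threshold of an adjusted p under 0.05. None of the values that changed sign had been called. At an adjusted p below 0.05 without the fold minimum, the members called lower were 1 instead of 0 in Trp53-WT against Brca2-WT (0.417% of all genes) and 2 instead of 0 in Trp53-WT against adjacent (2.19%). They were 3 instead of 1 in tumor against Brca2-WT (38.1%), 4 instead of 3 in tumor against Trp53-WT (33.6%) and 3 instead of 1 in tumor against adjacent cerebella (32.2%). Those called higher were 1 instead of 0 in adjacent against Brca2-WT (0.48%) and 2 instead of 1 in tumor against adjacent (18.1%). With all 4 groups in 1 fit, *Trp53* made it 1 lower member in Trp53-WT against adjacent, beside 6 of 15727 genes. In tumor against Brca2-WT, 2 were lower with a pseudocount of 0.1 or 0.01, beside 3746 and 3671 of 15970 genes. Quantile normalization gave 0 there, beside 2946 genes, and 2 in tumor against Trp53-WT, beside 2901 of 15767. In tumor against adjacent, 0 were higher with a pseudocount of 0.1 or 0.01 (672 and 649 of 15845 genes) or without the filter (465 of 21116). Leaving out 1 sample gave 0 to 1 lower in Trp53-WT against adjacent (1 without adjacent GB370, where 1.77% of genes were lower). It gave 0 to 1 higher in adjacent against Brca2-WT (1 without adjacent GB370, where 3.19% of genes were higher). In tumor against Brca2-WT it gave 1 to 3 lower, beside 20% to 22.8% of genes (3 without tumor GB344, 2 without tumor GB359, Brca2-WT GB517 or GB519). In tumor against Trp53-WT it gave 2 to 4 lower, beside 18.1% to 21% of genes (4 without tumor GB344, 2 without GB361). In tumor against adjacent it gave 0 to 1 higher, beside 1.19% to 5.76% of genes. With the mouse as a replicate block, 1 member was higher (*Eda2r*) and 1 lower (*Cdkn1a*) in tumor against adjacent, beside 701 and 2841 of 15845 genes, and no member's call changed.

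The sign changes were those of *Sesn2*, *Mdm4*, *Mdm2* and *Eda2r* at values near 0. By median-of-ratios and quantile scaling, *Mdm4* moved to -0.00329 and -0.022 in adjacent against Brca2-WT, to 0.018 and 0.017 in tumor against Brca2-WT and to 0.0070 and 0.040 in tumor against adjacent, and *Sesn2* to 0.011 and 0.072 in tumor against Trp53-WT and, by quantile scaling, to -0.048 in adjacent against Brca2-WT. Leaving out 1 sample moved *Sesn2* between -0.049 and 0.50 in Trp53-WT against Brca2-WT, -0.088 and 0.31 against adjacent, -0.068 and 0.33 against both, -0.17 and 0.38 in adjacent against Brca2-WT, and, for the tumors, -0.086 and 0.46 against Brca2-WT, -0.23 and 0.21 against Trp53-WT and -0.096 and 0.32 against adjacent. It moved *Mdm4* between -0.040 and 0.082 in adjacent against Brca2-WT and, for the tumors, between -0.34 and 0.083 against Brca2-WT and -0.36 and 0.069 against adjacent, *Mdm2* between -0.0029 and 0.14 in adjacent against Brca2-WT, and *Eda2r* between -0.049 and 0.41 in Trp53-WT against both. The median of all genes under these 2 scalings was -0.01 and 0.05 against Brca2-WT and 0.02 and 0.14 against adjacent for the tumors. These alternatives for the median, and the fits of *Eda2r* without the filter, were chosen after seeing the data. For likeness, Spearman's rho was 1 for *Wdr77* with *Trp53*, and without the tumors r was 0.974 for *Lrrn3* with *Ccng1* and 0.934 for *Prkg1* with *Zmat3*; *Cdkn1a* kept none of its 3 nearest genes by Spearman, without the tumors or with a mean of at least 1 TPM. The cause of these shifts was not tested. The unknown depth limits genes near 0 TPM in controls, such as *Eda2r*, *Cdkn2a* and *Psrc1*.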
